A study of Mus musculus with 28 samples.

Results

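The genes described here are 10 transcripts that mark lipid-associated macrophages and macrophages recruited from blood: Trem2, Gpnmb, Cd9, Spp1, Itgax, Ccr2, Lgals3, Cd63, Fabp5 and Mmp12. They were chosen by gene name, and all 10 were found in each of the 3 deposited tables, among 54163 genes for liver and 54189 for muscle at 40 d and 54501 at 24 h. In a fatty liver or in obese fat tissue, monocytes that carry the chemokine receptor CCR2 leave the blood and become macrophages, some of which take up lipid. Such cells are known for TREM2, a surface receptor for lipids and apolipoproteins that signals through the adaptor TYROBP, and for a set of genes of lipid handling, the lysosome and matrix turnover. In bulk RNA from a whole tissue, fewer cells of a type and less RNA per cell cannot be told apart.

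The mice were male C57BL/6J animals homozygous for the Lep ob allele, which makes no functional leptin. From 4 weeks of age they ate the AMLN diet for 20 weeks, with 40% of calories from fat, 20% from fructose and 2% cholesterol by weight, a food used to bring on steatohepatitis, and they stayed on it during treatment. Treated mice were injected in the abdomen each day with aspirin (3.0 mg/kg) mixed with trimetazidine (5.0 mg/kg), and vehicle mice with solvent. All groups thus shared the Lep genotype and the diet, and lean mice were not analysed here. Each tissue had 6 treated and 6 vehicle libraries at 40 d, and 1 of each at 24 h, where no comparison has a replicate. The vehicle mice are numbered 2_1, 2_3, 2_4, 2_5, 3_2 and 6_1, and the treated mice 4_5, 5_1, 5_2, 5_3, 5_4 and 5_5. The first digits of the groups do not overlap, and whatever goes with that digit cannot be told apart from treatment.

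Values are FPKM, the fragments on a gene per kilobase of its exons, scaled to the fragments of its library. The reads assigned to genes numbered 16.8 to 18.9 M per liver library at 40 d, 16.1 to 19.9 M per muscle library at 40 d and 16.1 to 17.4 M per library at 24 h. The tissues carried their own markers: at 40 d the summed level of 5 hepatocyte genes was 19940 to 36811 FPKM in livers and 2.07 to 144 in muscles, and that of 5 muscle fibre genes 28964 to 53721 in muscles and 0 to 4.00 in livers. The liver of treated mouse 4_5 stood apart. Its 12 pan-macrophage markers summed to 3325 FPKM against 834 to 1393 in the other 11 livers, and its Adgre1, which encodes the macrophage surface protein F4/80, was at 112 FPKM against 12.1 to 17.9. Its 8 neutrophil markers summed to 472 FPKM, with 124 next, and its 5 muscle fibre markers to 4.00 FPKM, where the other livers had 0.2175 or less. Its 7 Kupffer cell markers summed to 1043 FPKM, the highest of the treated livers, against 278 to 328 in vehicle livers. Among these markers, the lectin Clec4f was at 62.4 FPKM in it, within the 49.4 to 77.5 of the other livers. Several results are given with and without this liver.

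The upstream sequences of 5 of the genes are shown because they hold a match to a site of a macrophage factor within the 250 bases before the transcription start. RefSeq promoters of build GRCm38.p6 were at hand for 9 of the 10 genes, as 11 windows, since Spp1 and Mmp12 each have 2, and Fabp5 has none in the table. Each is given 5′ to 3′ on the gene's strand, up to the first base of any annotated exon, in lower case with matches in capitals. Capitals mark GAGGAAG, a core bound by PU.1, the lineage factor of macrophages, read on either strand, or TGANTCA. The latter, searched with any base at N, is a loose form of the AP-1 site, which has C or G there.
Trem2, chr17:48346151-48346400, plus strand: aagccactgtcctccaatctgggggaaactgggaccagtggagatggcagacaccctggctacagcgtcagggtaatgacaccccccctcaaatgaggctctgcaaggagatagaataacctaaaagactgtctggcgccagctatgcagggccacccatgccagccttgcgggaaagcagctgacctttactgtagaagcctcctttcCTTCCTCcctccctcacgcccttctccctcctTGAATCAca
Itgax, chr7:128129300-128129546, plus strand: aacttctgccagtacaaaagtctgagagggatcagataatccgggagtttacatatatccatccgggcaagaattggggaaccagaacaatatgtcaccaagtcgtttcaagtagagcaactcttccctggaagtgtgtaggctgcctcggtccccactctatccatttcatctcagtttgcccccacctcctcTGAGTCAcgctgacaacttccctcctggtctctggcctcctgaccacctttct
Spp1, chr5:104434861-104435110, plus strand: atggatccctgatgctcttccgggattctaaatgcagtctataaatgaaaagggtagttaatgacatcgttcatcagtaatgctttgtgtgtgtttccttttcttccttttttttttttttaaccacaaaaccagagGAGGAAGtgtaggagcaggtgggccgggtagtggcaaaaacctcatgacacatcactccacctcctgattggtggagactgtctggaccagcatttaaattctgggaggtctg
Cd63, chr10:128909095-128909344, plus strand: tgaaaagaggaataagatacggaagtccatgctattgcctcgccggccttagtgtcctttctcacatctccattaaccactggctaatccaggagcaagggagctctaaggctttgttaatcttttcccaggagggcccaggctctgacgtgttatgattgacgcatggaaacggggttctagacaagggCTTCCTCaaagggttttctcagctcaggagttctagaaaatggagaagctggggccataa
Mmp12, first window, chr9:7344147-7344380, plus strand: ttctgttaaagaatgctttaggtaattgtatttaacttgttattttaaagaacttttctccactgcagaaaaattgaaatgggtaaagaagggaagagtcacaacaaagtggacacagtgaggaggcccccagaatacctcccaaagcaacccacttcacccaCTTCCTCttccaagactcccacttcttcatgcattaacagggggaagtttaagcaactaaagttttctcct
Mmp12, second window, chr9:7347124-7347373, plus strand: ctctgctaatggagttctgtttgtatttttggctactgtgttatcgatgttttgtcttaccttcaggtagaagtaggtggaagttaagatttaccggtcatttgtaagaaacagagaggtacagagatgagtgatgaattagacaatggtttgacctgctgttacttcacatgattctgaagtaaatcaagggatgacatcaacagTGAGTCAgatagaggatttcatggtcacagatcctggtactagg
GAGGAAG or its complement was in 4 of the 11 windows, those of Trem2, Spp1, Cd63 and the first of Mmp12, and in 10.6% of all 32851 promoters over the same length. TGANTCA was in 3 of 11, those of Trem2, Itgax and the second of Mmp12, and in 6.75% of all promoters. The base at N was G in the windows of Itgax and Mmp12, and A in that of Trem2, which departs from the C or G of the AP-1 site. The Trem2 window held both patterns, without overlap, with the PU.1 core at bases −41 to −35 and TGAATCA at −9 to −3, counted back from −1 just before the start. CACGTG, the E-box bound by the lysosomal factor TFEB, was in 0 of 11 windows and in 6.02% of all promoters, and the spaced direct repeat of the nuclear receptor half-site AGGTCA, to which PPAR proteins bind, in 0 of 11 and in 0.0335%. These are matches of letters, and no binding was measured.

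In build GRCm38, the gene records name Trem2 (ENSMUSG00000023992) at chr17:48346401-48354147, Ccr2 (ENSMUSG00000049103) at chr9:124101950-124113557 and Itgax (ENSMUSG00000030789) at chr7:128129547-128150657. The secreted products are Spp1 (ENSMUSG00000029304) at chr5:104435118-104441050, Lgals3 (ENSMUSG00000050335) at chr14:47367751-47386160 and Mmp12 (ENSMUSG00000049723) at chr9:7344381-7369499. The tetraspanins are Cd63 (ENSMUSG00000025351) at chr10:128900989-128912822 and Cd9 (ENSMUSG00000030342) at chr6:125460266-125494791, and the others Gpnmb (ENSMUSG00000029816) at chr6:49036546-49070929 and Fabp5 (ENSMUSG00000027533) at chr3:10012548-10016607. All lie on the plus strand except Cd9. Of the exonic bases of each gene, 18.75% of those of Spp1 are shared with Gm42793 on the same strand, 10.7% of those of Cd9 with Gm26728 and 2.17% of those of Mmp12 with Mmp1b on the opposite strand. The strand setting of the counting is not known here, so reads in these stretches may belong to either gene.

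Over the 12 livers at 40 d the mean FPKM level was highest for Spp1 at 198.7, followed by Lgals3 at 63.6, Cd63 at 33.6, Cd9 at 33.0, Gpnmb at 20.5, Fabp5 at 11.5, Mmp12 at 9.13, Itgax at 2.71, Ccr2 at 2.10 and Trem2 at 0.242. Each gene stood above its neighbour in this order in all 12 livers, except Cd63, which was above Cd9 in 6 of 12, and Fabp5, which was above Mmp12 in 10 of 12. The authors' gene lengths are those of all exons merged, and for Trem2 this length of 4946 bases is 4.55 times that of its principal transcript of 1088 bases. Its FPKM, and to a lesser extent those of Fabp5 (3.61 times), Cd63 (3.32 times) and Mmp12 (2.01 times), are therefore low relative to genes whose merged length is near their transcript's, such as Spp1 (1.09 times). This does not touch comparisons of the same gene between groups.

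Of the receptors, Trem2 was measured by only 5 to 64 reads a liver. Its level was 0.0963, 0.224 and 0.539 FPKM (lowest, median and highest) in vehicle livers and 0.0563, 0.177 and 0.692 in treated livers. The groups overlapped, and the highest liver of each, mice 2_5 and 5_5, lay well above the rest of its group. Ccr2, the receptor for monocyte chemoattractants, was at 1.36, 2.05 and 2.49 FPKM under vehicle and 0.929, 2.23 and 3.10 in treated livers. Treated livers held both the lowest Ccr2 value, in mouse 5_2, and the highest, in mouse 5_1. Itgax, the integrin alpha chain CD11c, was at 2.07, 3.24 and 3.67 FPKM under vehicle and 1.57, 2.41 and 3.32 in treated livers. No treated liver exceeded the highest vehicle liver for Itgax, and 2 lay below the lowest.

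**Figure D1:**
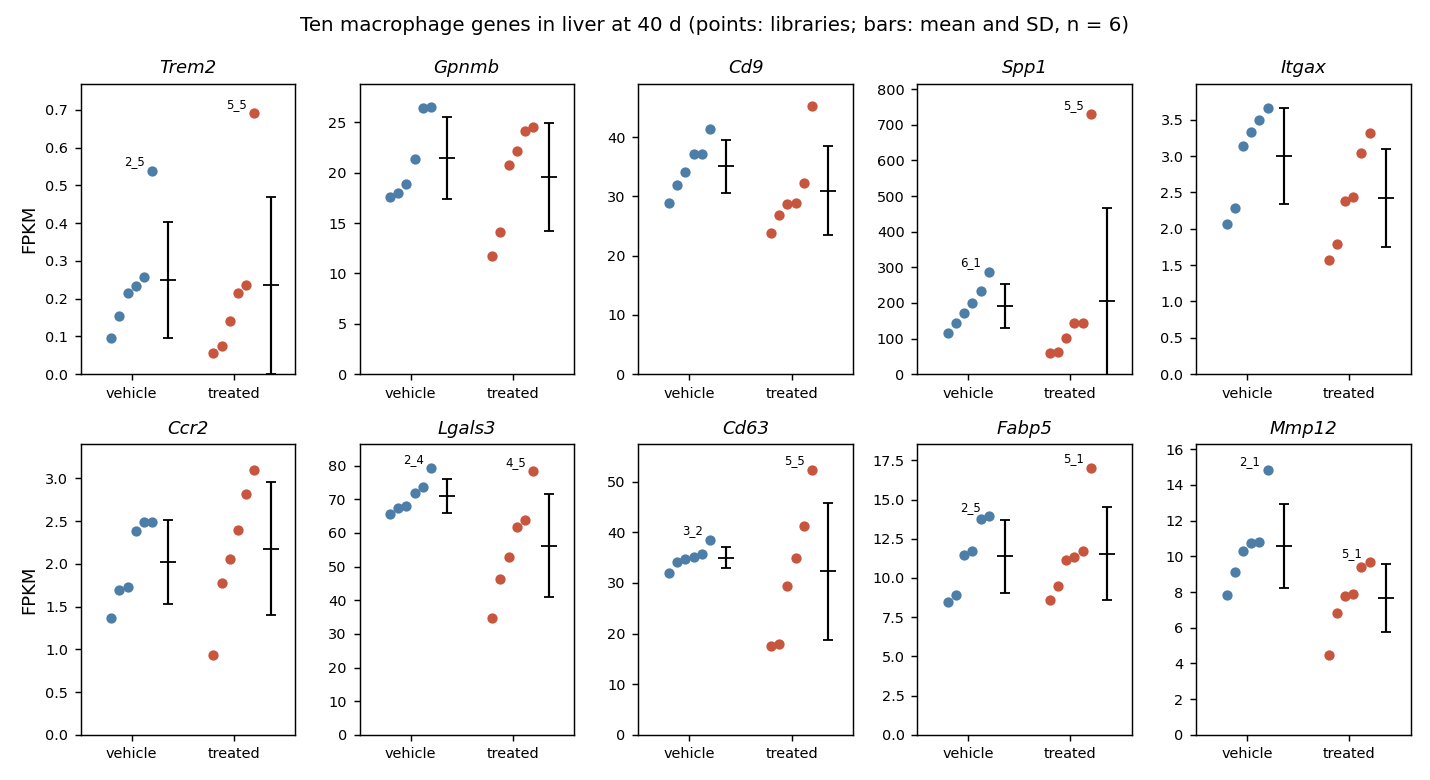
FPKM of the 10 genes in each liver library at 40 d, vehicle on the left and treated on the right of each panel, with the mean and SD of 6 libraries beside the points and bars cut off at 0. The groups overlap for every gene, and the Spp1 value of treated mouse 5_5, 730.4 FPKM, stands far above the rest.

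Among secreted products, Spp1, which encodes osteopontin, a matrix protein and ligand of integrins and CD44, varied most. The level was at 114, 186 and 287 FPKM in vehicle livers and 58.2, 122 and 730.4 in treated livers. The highest value belonged to treated mouse 5_5, whereas the other 5 treated livers were between 58.2 and 143 FPKM and 3 of the 6 lay below every vehicle liver. Mmp12, the macrophage elastase, was at 7.85, 10.5 and 14.8 FPKM under vehicle and 4.50, 7.82 and 9.66 in treated livers. All 6 treated livers were below the vehicle mean of 10.6, and the lowest was the liver of mouse 4_5. Lgals3, the glycan-binding galectin-3, was at 65.7, 69.9 and 79.2 FPKM under vehicle and 34.6, 57.3 and 78.3 in treated livers. For Lgals3, 5 of 6 treated livers lay below the lowest vehicle liver, and mouse 4_5 was the exception.

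Among membrane and lipid-handling genes, Gpnmb, a glycoprotein of lysosomes and the cell surface, was at 17.6, 20.1 and 26.5 FPKM under vehicle and 11.8, 21.4 and 24.6 in treated livers. Cd63, a tetraspanin of late endosomes and lysosomes, was at 32.0, 34.9 and 38.5 FPKM under vehicle and 17.6, 32.1 and 52.4 in treated livers. Cd63 was thus tightly grouped in vehicle livers and widely spread in treated livers, with mice 5_2 and 5_4 below and 5_3 and 5_5 above every vehicle liver. A transcribed processed copy, Cd63-ps, was at 9.36 to 21.3 FPKM in the livers, so reads shared between Cd63 and this copy make its level uncertain. Cd9, a tetraspanin of the plasma membrane, was at 28.8, 35.6 and 41.4 FPKM under vehicle and 23.9, 28.8 and 45.2 in treated livers, and its highest value again belonged to mouse 4_5. Fabp5, a cytosolic carrier of fatty acids, was at 8.50, 11.6 and 14.0 FPKM under vehicle and 8.57, 11.2 and 17.0 in treated livers, where only mouse 5_1 lay above the vehicle range. The treated mice 5_2 and 5_4 were together the lowest pair of all 12 livers for Gpnmb, Spp1, Itgax, Lgals3 and Cd63.

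Treated and vehicle livers were compared with limma's moderated test on log2(FPKM + 1), two-sided, over the 10995 genes that reached 1 FPKM in 6 or more livers, with p adjusted after Benjamini and Hochberg and genes called below 0.05. Of all tested genes 28 passed, or 0.255%, and 0 of the 9 tested members did. Trem2 was below 1 FPKM in every liver and was not in the fit. At an unadjusted p under 0.05 there were 2 members, Mmp12 and Lgals3, by limma and likewise 2 by limma voom on reads recovered from the FPKM, whereas 13.2% of all tested genes had such a p. The member groups overlapped in all 10 cases, and groups that did not overlap were found for 1.16% of tested genes.

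Mmp12 had a mean of 10.6 ± 2.36 FPKM (SD, n = 6) in vehicle and 7.67 ± 1.89 in treated livers. The log2 fold change was −0.43 (SE 0.165, 95% interval −0.78 to −0.072, adjusted p = 0.290 by limma over all tested genes), and −0.30 without mouse 4_5 (adjusted p = 0.354). For Lgals3 the means were 70.9 ± 5.01 and 56.3 ± 15.2 FPKM and the log2 fold change −0.37 (SE 0.157, 95% interval −0.71 to −0.034, adjusted p = 0.335), −0.47 without mouse 4_5 (adjusted p = 0.175) and −0.24 without mouse 5_2 (adjusted p = 0.331). Spp1 had a higher treated than vehicle mean on the linear scale, 206 ± 259.5 against 191 ± 62.7 FPKM, but a lower mean of logarithms, with a log2 fold change of −0.46 (SE 0.503, adjusted p = 0.729). The sign on the linear scale rests on mouse 5_5, without which the Spp1 log2 fold change was −0.95 (adjusted p = 0.262), whereas it was −0.225 without mouse 5_4 and −0.24 without 5_2.

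The log2 fold changes of the other tested members in liver were −0.23 for Itgax, −0.22 for Cd63, −0.19 for Cd9, −0.15 for Gpnmb, 0.047 for Ccr2 and 0.011 for Fabp5, each with a 95% interval that spans 0. Single livers moved several of these: Cd63 ran from −0.38 without mouse 5_5 to −0.073 without 5_2, Gpnmb from −0.23 without 5_3 to −0.025 without 5_2, and Cd9 from −0.305 without 4_5 (unadjusted p = 0.0107, adjusted p = 0.2205 by limma) to −0.13 without 5_4. The intervals bound what these livers can show: for Fabp5, −0.33 to 0.35, and for Ccr2, −0.32 to 0.41 on the log2 scale. For Trem2 the mean of log2(FPKM + 1) was 0.312 in vehicle and 0.286 in treated livers, p = 0.799 by an exact two-sided permutation test over the 924 ways to split 12 livers, where 0.00216 is the smallest p possible. The median fold change of the 9 members was −0.22, with 7 below and 2 above 0, against a median of −0.0033 over all tested genes, of which 51.0% were below 0. The members were 9 lower and 0 higher without vehicle mouse 2_3 or without treated mouse 5_1, 8 and 1 without vehicle mouse 2_1 or treated mouse 5_5, and 7 and 2 without any other mouse. Their median was nearest to 0 without treated mouse 5_4, at −0.13, or 5_2, at −0.15, and farthest without 5_5, at −0.28. The plot of fold changes shows the intervals in both tissues.

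**Figure D2:**
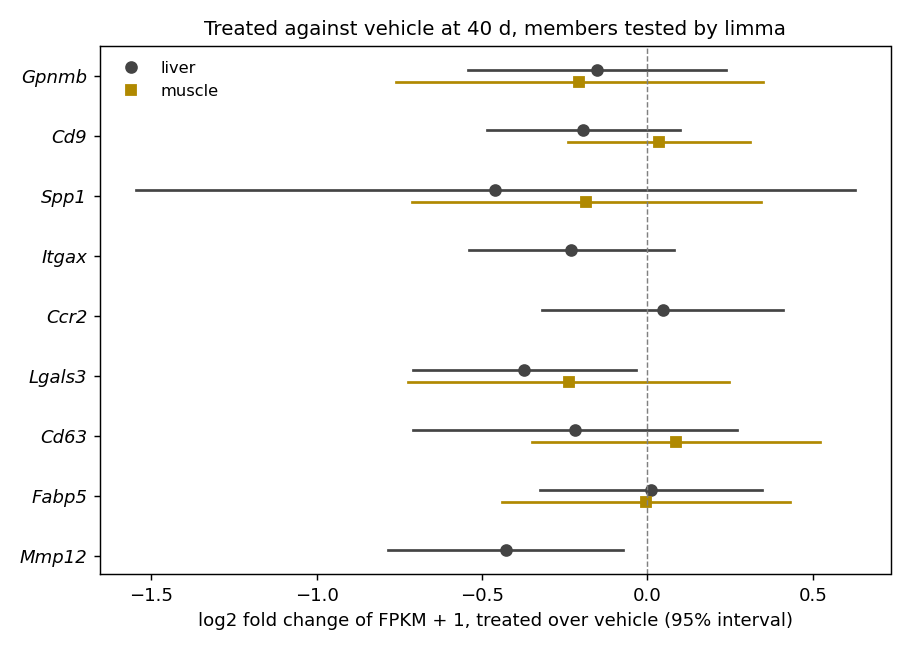
Log2 fold change of FPKM + 1, treated over vehicle at 40 d, with the 95% interval from limma, for the 9 members tested in liver (circles) and the 6 tested in muscle (squares). Only the liver intervals of Lgals3 and Mmp12 lie wholly below 0, and neither passed the adjusted threshold.

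General markers of macrophages in the same livers lay on the other side of 0. All 12 of 12 pan-macrophage genes had a higher mean in treated livers, with a median log2 fold change of 0.445, but 0 passed the adjusted threshold and 1 had an unadjusted p under 0.05, Cd14, the lipopolysaccharide co-receptor (10.3 ± 1.67 against 20.3 ± 15.5 FPKM, adjusted p = 0.355). Kupffer cell markers, genes of the liver's resident macrophages, were higher for 7 of 7, with a median of 0.275 and 0 passing. Without mouse 4_5 these counts were 12 of 12 and 6 of 7 and the medians 0.18 and 0.15, while the members stayed at 7 below 0 of 9 with a median of −0.24. In the liver of mouse 4_5, where the pan-macrophage sum was highest, Cd9 and Lgals3 were the highest of the treated livers, Gpnmb was at 22.1 FPKM and Itgax at 2.43, within the range of the vehicle livers, and Mmp12 was the lowest of all 12 livers. The difference between the members and the marker lists was not tested.

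Neutrophil markers differed more than those of macrophages: the summed level of 8 genes was 12.4 to 18.7 FPKM under vehicle and 32.2 to 472 in treated livers, highest in mouse 4_5. Of the 8 genes, 4 reached the filter and were tested, and 4 of 4 were higher. Camp, at 0 to 0.3925 FPKM under vehicle and 1.03 to 16.1 in treated livers, reached the filter only through treated livers. Its direction was thus fixed by the filter. The 1 gene called was S100a9, a calcium-binding protein of neutrophils and monocytes (7.88 ± 2.37 against 77.0 ± 85.6 FPKM, log2 fold change 2.62, adjusted p = 0.0449 by limma). That call was kept in 3 of 12 fits that left out a mouse, with adjusted p from 0.0326 to 0.120, and was lost with a filter of 0.1 FPKM (adjusted p = 0.0582), with no filter (0.147) and without mice 4_5 and 5_5 (0.0578). Stellate cell markers summed to 37.6 to 73.3 FPKM under vehicle and 38.1 to 160.5 in treated livers, highest in mouse 5_5, and biliary markers to 7.75 to 16.5 and 7.46 to 92.6, highest in mouse 5_2. Red cell markers were higher for 5 of 5 genes in treated livers, with a median log2 fold change of 0.68 (0.71 without mouse 4_5) and 0 called, and their sums overlapped, at 375 to 1568 FPKM under vehicle and 503 to 2551 in treated livers. T and NK cell, dendritic cell, adipocyte and hepatocyte lists had 0 genes called. Only 2 of 8, 1 of 8, 1 of 6 and 5 of 5 of their genes, in this order, reached the filter and were tested. The part of other cell types in the members' values was not tested.

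The genes that act with the members were followed as 10 lists, which leave the members themselves out, with 84 genes in all. Of these, 76 were tested in liver and 0 passed. An unadjusted p under 0.05 was found for 18 of the 76, a larger share than the 13.2% of all tested genes. That difference was not tested. The companions of lipid-associated macrophages, genes often reported beside TREM2, had 9 of 12 members below 0, a median log2 fold change of −0.19, and 6 with an unadjusted p under 0.05, all 6 lower. Plin2, the coat protein of lipid droplets, was at 350.1 ± 69.7 FPKM under vehicle and 218 ± 31.5 in treated livers, a log2 fold change of −0.67 (adjusted p = 0.0902). Its groups did not overlap, with 281 as the lowest vehicle and 253 as the highest treated value, as was found for 1.16% of all tested genes. Anxa5, a phospholipid-binding annexin, was at 276 ± 52.4 and 170 ± 42.0 FPKM (adjusted p = 0.116), and Lgals1, which encodes galectin-1, at 218.5 ± 30.9 and 140.7 ± 29.9 (adjusted p = 0.116). Hepatocytes and other cells express these genes too, so they are not specific to macrophages.

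Lists of the members' partners and relatives were mixed. TREM2 signalling, from the adaptor Tyrobp to Apoe, had 7 of 8 genes above 0 and a median of 0.25 (0.091 without mouse 4_5), with Hcst, the adaptor DAP10, at 1.49 ± 0.336 FPKM under vehicle and 1.97 ± 0.331 in treated livers (adjusted p = 0.311). Recruitment through CCR2 had 5 of 7 above 0, with a median of 0.41 (0.24 without mouse 4_5): Csf1, the macrophage growth factor, was at 3.10 ± 0.522 and 4.57 ± 0.992 FPKM (adjusted p = 0.158), and Ccl8, a chemokine that attracts monocytes, at 1.30 ± 1.35 and 3.59 ± 1.79 (adjusted p = 0.207). Galectins were above 0 for 1 of 5 and fatty acid binding proteins for 0 of 5. Scavenger receptors and cholesterol efflux were above 0 for 8 of 9 (6 of 9 without mouse 4_5), and the remaining gene was Cd36, the fatty acid receptor, at 120.3 ± 15.7 and 94.7 ± 10.1 FPKM (log2 fold change −0.34, adjusted p = 0.180). Metalloproteinases and their inhibitors were above 0 for 5 of 6, lysosomal genes for 10 of 14, tetraspanins for 4 of 7 and integrin partners for 3 of 6. None of these genes passed the adjusted threshold.

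In muscle Cd63 and Lgals3 led, with means over the 12 libraries of 33.9 and 31.8 FPKM, followed by Cd9 at 25.9, Fabp5 at 10.45, Spp1 at 2.88, Gpnmb at 2.36, Mmp12 at 1.03, Ccr2 at 0.809 and Itgax at 0.682. Cd63 stood above Lgals3 in 9 of 12 muscles, Spp1 above Gpnmb in 7 and Mmp12 above Ccr2 in 5, so these neighbours were not ordered in every mouse. Trem2 was last at 0.0551 FPKM, with 0 to 16 reads a muscle and none in 3 treated muscles. Spp1, the highest of the 10 in liver, was thus among the low genes here. Levels in liver and muscle come from tables normalized separately, so they are set side by side without a test.

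**Figure D3:**
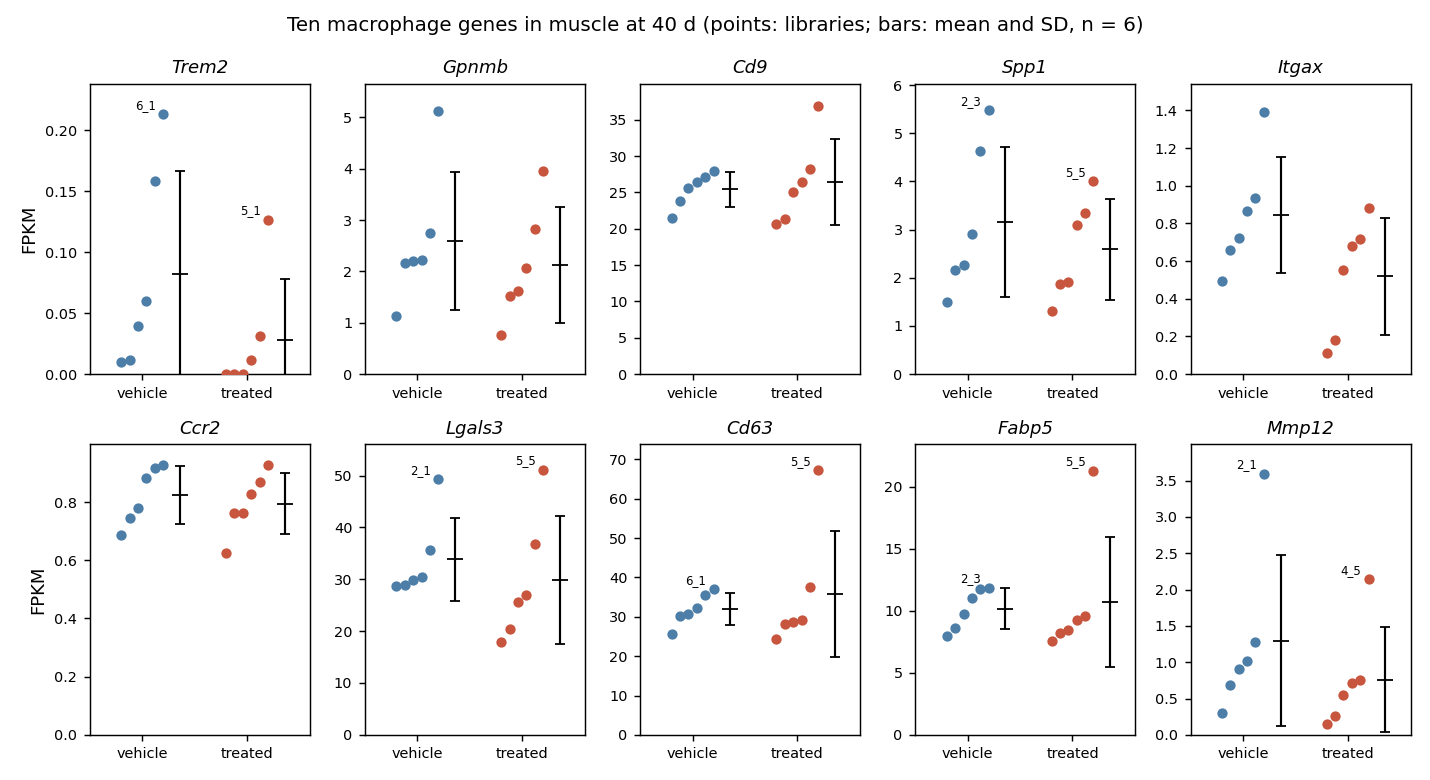
FPKM of the 10 genes in each muscle library at 40 d, drawn as for the livers, with the mean and SD of 6 libraries and bars cut off at 0. The groups overlap for every gene, and treated mouse 5_5 is highest for Cd63, Fabp5 and Lgals3, vehicle mouse 2_1 for Mmp12.

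Lgals3 was at 28.7, 30.2 and 49.3 FPKM under vehicle and 17.9, 26.3 and 51.2 in treated muscles, with 4 of 6 treated muscles below every vehicle muscle and the highest value also in a treated one. Gpnmb was at 1.13, 2.22 and 5.12 FPKM under vehicle and 0.769, 1.84 and 3.95 in treated muscles, and Spp1 at 1.51, 2.59 and 5.48 and at 1.30, 2.51 and 4.00. For both, the ranges of the groups overlapped over most of their length. Cd63 was at 25.7, 31.5 and 37.1 FPKM under vehicle and 24.4, 28.9 and 67.3 in treated muscles, Fabp5 at 8.00, 10.4 and 11.9 and at 7.55, 8.87 and 21.3, and Cd9 at 21.5, 26.0 and 27.96 and at 20.7, 25.8 and 36.9. In these 3 genes the highest of all muscles was that of treated mouse 5_5. Itgax was at 0.494, 0.796 and 1.39 FPKM under vehicle and 0.110, 0.617 and 0.880 in treated muscles, Mmp12 at 0.296, 0.962 and 3.59 and at 0.151, 0.632 and 2.14, and Ccr2 at 0.687, 0.832 and 0.927 under vehicle and at a median of 0.795 and a highest value of 0.926 in treated muscles, the lowest of which, that of mouse 5_5, had 75 reads on the gene. Treated muscles 5_2 and 5_3 were the lowest for Itgax and Mmp12, and the Ccr2 groups spanned nearly the same range.

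A few muscles held the extremes. Treated mouse 5_5 had 67.3 FPKM of Cd63 against 24.4 to 37.5 in the other 11 muscles, and 21.3 FPKM of Fabp5 against 7.55 to 11.9. The same muscle was the highest for Cd9, at 36.9 FPKM, and for Lgals3, at 51.2. Vehicle mouse 2_1 was highest for Gpnmb at 5.12 FPKM, Mmp12 at 3.59 and Itgax at 1.39. Treated mouse 5_2 was lowest for Gpnmb, Itgax, Lgals3, Cd63 and Fabp5, at 0.769, 0.110, 17.9, 24.4 and 7.55 FPKM. In the muscle of mouse 4_5, whose liver stood apart, Adgre1 was also the highest of the 12, at 17.4 FPKM against 1.89 to 5.90.

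Of 11708 genes tested in muscle, 0 passed the threshold by limma, or 0%, and 3.85% had an unadjusted p under 0.05. Of the 6 members with enough signal to be tested, 0 passed, and 0 had an unadjusted p under 0.05 by limma or by voom on the same genes (1 of 10 by voom on every gene with a read in at least 6 libraries). The fold changes of Gpnmb, Lgals3, Spp1, Cd63, Cd9 and Fabp5 were −0.21, −0.24, −0.19, 0.086, 0.035 and −0.0040 on the log2 scale, all with an adjusted p of 0.999. Without mouse 5_5 all 6 were below 0 and Fabp5 was at −0.21. For Trem2, Itgax, Ccr2 and Mmp12, which were below the filter, exact two-sided permutation tests over the 924 splits gave p = 0.199, 0.121, 0.636 and 0.336. Groups that did not overlap were found for 0 members and for 0.256% of tested genes. Of the 67 tested genes of the 10 lists, 0 passed and 0 had an unadjusted p under 0.05. Pan-macrophage genes were higher for 6 of 10, with a median log2 fold change of 0.16. Without mouse 4_5 they were higher for 4 of 10, with a median of −0.10. Their sums overlapped, at 282 to 415 FPKM under vehicle and 229 to 725.5 in treated muscles, highest in mouse 4_5. Neutrophil markers were higher for 3 of 3 tested genes, all with an unadjusted p under 0.05 and none passing, with sums of 5.68 to 13.2 and 11.2 to 61.5 FPKM. Red cell markers were higher for 5 of 5, with a median log2 fold change of 0.90, 0 passing and sums of 485 to 1015 and 340 to 2348 FPKM.

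Whether the effect in liver differed from that in muscle was tested as a contrast over the 9436 genes tested in both tissues. By limma 1 gene passed, or 0.0106%, and 0 of the 6 members did, with 0 at an unadjusted p under 0.05. The difference, liver effect minus muscle effect, was −0.30 for Cd63 (95% interval −0.96 to 0.35), −0.27 for Spp1 (−1.49 to 0.94) and −0.23 for Cd9 (−0.62 to 0.16), and the adjusted p was 0.997 for all 6. Intervals of this width do not show that the effects were equal.

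Covariation of the members from liver to liver at 40 d was taken within the groups. Correlations were taken on log2(FPKM + 1) with the group means removed, over 12 livers, for the 9 members with a mean of at least 0.5 FPKM, which makes 36 pairs. The median Pearson's r was 0.45, with 32 of 36 pairs above 0 and a range of −0.59 to 0.84. An r of at least 0.7 was reached by 5 of 36 pairs, or 13.9%, against 2.12% of all pairs of tested genes, whose median r was 0.0036. The median r was 0.26 without mouse 5_2 and 0.56 without mouse 5_5. Within treated livers alone it was 0.54 and within vehicle livers 0.16, a difference that was not tested, and 20 of 36 pairs were above 0 in both groups.

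After adjustment over the 36 pairs, with p from 100000 permutations within groups, 2 pairs passed by Pearson's r and 1 by Spearman's rho, and 0 by both. Itgax and Ccr2 had r = 0.84 (p = 0.00104, adjusted p = 0.0374) and rho = 0.84 (p = 0.00361, adjusted p = 0.0624), and r was 0.84 without the 2 livers farthest from the median of Itgax, 0.68 in vehicle and 0.94 in treated livers. Spp1 and Cd63 had r = 0.84 (p = 0.00277, adjusted p = 0.0499) and rho = 0.64 (p = 0.0429, adjusted p = 0.226), with r at 0.67 without the 2 livers farthest for Spp1, 0.12 in vehicle and 0.89 in treated livers, so that relation rests on the treated group. Spp1 and Ccr2 had rho = 0.86 (p = 0.00121, adjusted p = 0.0436) and r = 0.68 (p = 0.0558, adjusted p = 0.198), and r was 0.87 without the 2 livers farthest for Spp1.

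Gpnmb and Lgals3, both lysosome-linked products of lipid-laden macrophages, had r = 0.80 (p = 0.00437, adjusted p = 0.0524) and rho = 0.78 (p = 0.0132, adjusted p = 0.0948), and r dropped to 0.31 without the 2 livers farthest for Gpnmb, so it rests on them. Cd9 and Mmp12 stood outside the group. The r of Cd9 with the other 8 was between −0.59 and 0.27, and that of Mmp12 between −0.59 and 0.21. The lowest r of all was that of Cd9 with Mmp12 (r = −0.59, p = 0.0770, adjusted p = 0.231, rho = −0.55, p = 0.0720, adjusted p = 0.259), and it was −0.13 without mouse 4_5. All 36 values stand in the plot of pairwise correlations.

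**Figure D4:**
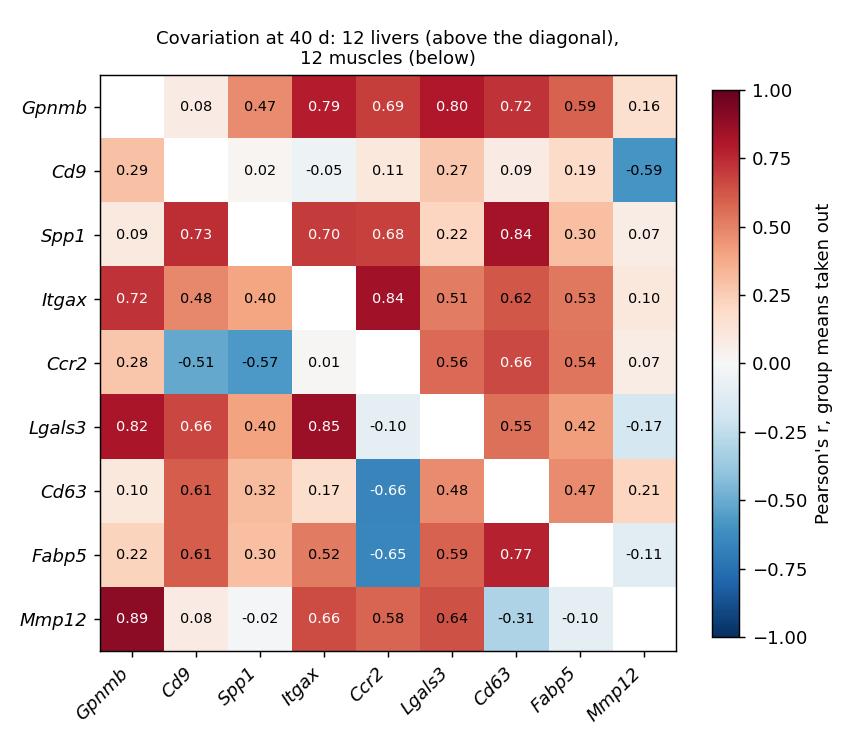
Pearson's r for each pair of the 9 members, group means taken out, over the 12 livers above the diagonal and the 12 muscles below it, on a colour scale from −1 to 1. In liver the highest value is that of Itgax with Ccr2 (0.84) and in muscle that of Gpnmb with Mmp12 (0.89).

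The members were next set against the mean log2 level of 6 marker lists in the same livers, an analysis added after the values were seen, with 54 relations in all. After adjustment over the 54, the only relation that passed by both measures was Spp1 with 8 stellate cell markers, genes of the liver's collagen-producing cells (r = 0.88, p = 2e-05, adjusted p = 0.00108, rho = 0.94, p = 3e-05, adjusted p = 0.00162). It was 0.92 without the 2 livers farthest in stellate level, 0.95 in vehicle livers and 0.87 in treated livers, and at least 0.85 when any liver was left out. Ccr2 passed by rho alone (rho = 0.91, p = 0.00043, adjusted p = 0.0116, r = 0.79, p = 0.00518, adjusted p = 0.0932). Itgax with the stellate markers had r = 0.79 (p = 0.00486, adjusted p = 0.0932, rho = 0.81, p = 0.00561, adjusted p = 0.101).

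With the pan-macrophage list the r of the 9 members ran from −0.55 for Mmp12 to 0.80 for Lgals3, and none passed (Lgals3, p = 0.0375, adjusted p = 0.337, rho = 0.50, p = 0.102). Without mouse 4_5 Mmp12 was at 0.455, Lgals3 at 0.91 and Cd9, which had been at 0.66, at −0.37. With the Kupffer cell list the range was −0.49 to 0.68, with the neutrophil list −0.58 to 0.79, with the biliary list −0.63 to 0.059 and with the dendritic list −0.38 to 0.74, and none passed by either measure. Several ends rest on mouse 4_5: without it, Cd9 with the Kupffer list went from 0.68 to −0.020 and Mmp12 from −0.49 to 0.36, and with the neutrophil list Cd9 went from 0.79 to 0.41 and Mmp12 from −0.58 to 0.025. Mmp12 with the dendritic list went from −0.38 to 0.026. Other relations grew more negative without mouse 4_5. With the Kupffer list Fabp5 went from −0.34 to −0.85, Itgax from −0.26 to −0.63 and Ccr2 from −0.15 to −0.62. The 9 members then ran from −0.85 for Fabp5 to 0.36 for Mmp12. With the dendritic list Cd9 went from 0.030 to −0.80, and the highest was Lgals3 at 0.60. Spp1, which bile duct cells are also known to express, had r = 0.055 with the biliary list (p = 0.871, rho = 0.43, p = 0.195). That value rests on mouse 5_2, the highest in biliary markers, which had 61.5 FPKM of Spp1: without it r was 0.82, without the 2 livers farthest in biliary level 0.87, and in vehicle livers alone 0.67. The rise was not particular to Spp1. Without mouse 5_2, Itgax went from −0.090 to 0.76, Cd63 from −0.24 to 0.62, Gpnmb from −0.34 to 0.55 and Ccr2 from −0.44 to 0.52. Lgals3 and Fabp5 went up to 0.072 and 0.30, Cd9 went down to −0.083, and Mmp12 was at −0.13. In vehicle livers alone Itgax was at 0.88.

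**Figure D5:**
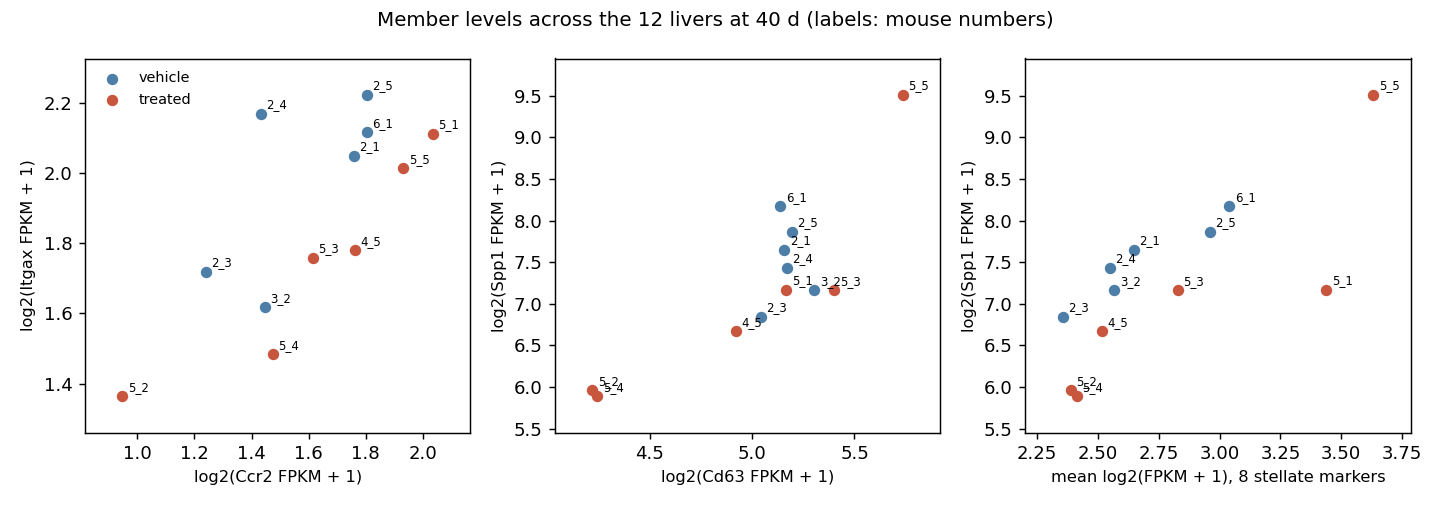
Each point is a liver at 40 d, labelled by mouse number, vehicle in blue and treated in red, on log2(FPKM + 1) axes with group means kept: Itgax against Ccr2, Spp1 against Cd63, and Spp1 against the mean of 8 stellate cell markers. Mouse 5_5 is highest on both axes in the middle and right panels, and mice 5_2 and 5_4 are the lowest for Spp1 in both.

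Among the 10 genes outside the members whose liver pattern was most like the mean z-score of the 9 tested members, by Pearson's r over 12 livers with group means removed and among 10995 genes, were Cxcl14, Ccr1, Cx3cr1, Sparc, Col3a1, Cwc25, Cpxm1, Rftn1 and Zcchc10, with r from 0.88 to 0.93. They include the chemokine receptors Ccr1 and Cx3cr1, the chemokine Cxcl14, and the matrix genes Sparc and Col3a1, the last of which is also a stellate marker. Without mice 5_2 and 5_4, the farthest from the median score, the r of these named genes was between 0.61 and 0.75. Among the members themselves, each of which is part of this score, Gpnmb ranked 8 of 10995 in likeness to it, Cd63 14, Ccr2 16 and Itgax 21. Spp1 ranked 134, Lgals3 175 and Fabp5 258, whereas Cd9 (r = 0.19) and Mmp12 (r = 0.13) ranked 3214 and 3785.

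Trem2, with its few reads, was most like, outside the members, Ctnnal1, Ltbp3, Col6a1, Col4a5, Cdh3, Col6a2, Crtc3, Cadm4, Ptgis and Mmp23 (r from 0.85 to 0.93), among them 3 collagen chains and Ltbp3, a matrix-bound regulator of latent TGF-beta. Without mice 2_5 and 5_5, which had the most Trem2, the r of these genes was between 0.42 and 0.82. The member most like Trem2 was Spp1 with r = 0.85, at rank 10 of 10995, followed by Cd63 at 0.67 and Itgax at 0.59. These are the top of an ordered list over few livers, and no test was made.

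Over the 12 muscles the 36 pairs of the same 9 genes had a median r of 0.36, with 28 above 0, and 4 pairs passed the adjusted threshold by both r and rho. They were Gpnmb with Mmp12 (r = 0.89, p = 0.00094, adjusted p = 0.0191, rho = 0.83, p = 0.00309, adjusted p = 0.0331), Itgax with Lgals3 (r = 0.855, p = 0.00106, adjusted p = 0.0191, rho = 0.83, p = 0.00368, adjusted p = 0.0331), Gpnmb with Lgals3 (r = 0.82, p = 0.00256, adjusted p = 0.0259, rho = 0.92, p = 0.00019, adjusted p = 0.00684) and Cd9 with Spp1 (r = 0.73, p = 0.00288, adjusted p = 0.0259, rho = 0.81, p = 0.00204, adjusted p = 0.0331). Without the 2 muscles farthest in the first gene, r was 0.72, 0.72, 0.76 and 0.77 for these pairs. None of the 36 pairs passed in both tissues, and 25 were above 0 in both. An r of at least 0.7 was reached by 6 of 36 pairs, or 16.7%, against 4.80% over all pairs of tested genes, and the median r was 0.084 without mouse 5_5. Within treated muscles alone the median r was 0.59 and within vehicle muscles −0.13, a difference that was not tested, and 13 of 36 pairs were above 0 in both groups.

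Liver and muscle with the same mouse number were compared for 9 members. The highest value was that of Cd63 (r = 0.75, p = 0.0249, adjusted p = 0.224, rho = 0.49, p = 0.150), which was 0.36 without the 2 mice farthest in liver, −0.20 in vehicle and 0.81 in treated mice. For the other 8 members r was between −0.0405 and 0.43, none of which passed after adjustment over the 9 genes.

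At 24 h each group had 1 library, so the values compare 2 libraries a tissue. The intervals cover counting error only, and the spread between mice could not be estimated. In the liver libraries Trem2 was at 1.78 FPKM in vehicle (143 reads) and 2.885 in treated (201 reads), a ratio of 1.62 with an exact 95% counting interval of 1.30 to 2.02. Spp1 was at 753 and 604.7 FPKM, a ratio of 0.803 (0.786 to 0.821), and Gpnmb at 40.3 and 30.1, a ratio of 0.746 (0.711 to 0.783). The other 7 members had ratios between 0.908, for Itgax, and 1.13, for Cd63. By a 2-fold rule on log2(FPKM + 1), 0 of 10 members were past it, as were 1.94% of all genes averaging 1 FPKM or more.

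In the muscle libraries Fabp5 was at 14.0 FPKM under vehicle and 26.1 in treated, a ratio of 1.86 (1.70 to 2.03), and the adipocyte markers summed to 1598 and 3189 FPKM in the same libraries. Their part in the Fabp5 value was not tested. Spp1 was at 3.16 and 5.175 FPKM, a ratio of 1.64 (1.23 to 2.19) on 82 and 128 reads, and Ccr2 at 1.36 and 1.82, a ratio of 1.34 (1.07 to 1.68). Cd63 was at 44.9 and 36.4 FPKM, a ratio of 0.810 (0.764 to 0.859), and Trem2 had 6 reads in vehicle and 0 in treated. The 2-fold rule was met by 0 of 10 members and by 3.68% of genes.

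Set beside the 40 d livers, the 24 h livers had more Trem2 than any of the 12, whose highest was 0.692 FPKM, and both had more Itgax and Ccr2, at 5.60 to 6.16 and 3.76 to 3.84 FPKM against highest values of 3.67 and 3.10. Gpnmb at 30.1 to 40.3 and Fabp5 at 16.7 to 17.95 FPKM were also toward or above the top of the 40 d range, whose highest values were 26.5 and 17.0. Spp1, at 604.7 and 753 FPKM, was above the highest vehicle liver at 40 d, with 287, while treated mouse 5_5 had 730.4. Mmp12 went the other way, with 5.58 and 5.82 FPKM at 24 h, where 11 of 12 livers at 40 d had more. Biliary markers summed to 34.7 FPKM in the treated and 50.4 in the vehicle liver at 24 h. At 40 d their sums were 7.75 to 16.5 in vehicle and 7.46 to 92.6 in treated livers. The tables were normalized separately and the time points differ in the days of injection and in age, so these values were not tested.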

How the data were processed

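RNA of whole liver and muscle was sequenced in 28 samples, and the labels' protocols name NEBNext Ultra as the library kit. Builds GRCm38 and mm10 stand in the submitters' processing notes, with aligner, counter and strand setting not given in the sources used here. Deposited values are FPKM that the authors computed per gene, per the file headers, in 3 tables normalized separately, so tests stay within a table and levels are not tested across tables. For all 10 genes the deposited length equals the merged exon length of the annotation. Within a tolerance of 0.01, 100% of the values were whole reads, and reads recovered in this way served the limma voom alternative.

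Groups follow the labels. Whether the 6 samples of a group are separate mice rests on their numbers, so p-values measure the spread between these samples. No 2 libraries of a group agreed within sampling noise (chi-square per degree of freedom from 13.4 to 202.8 over 60 pairs). The design named a count test for count tables, and as these hold FPKM the log-scale test was used. Genes that reached 1 FPKM in 6 or more of 12 libraries were fitted as log2(FPKM + 1) with limma 3.58.1 (trend, two-sided, R 4.3.3), with Benjamini-Hochberg adjustment over all fitted genes. A pseudocount of 1 understates changes of low genes. Scripts were tested on simulated data. Genes below the filter had exact permutation tests. Correlations used 100000 permutations within groups (Python 3.11.15, scipy 1.17.1), and the smallest p they can give is 1e-05. Intervals at 24 h are exact binomial and cover counting error only.

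The members, lists and tests were chosen with earlier results of these data known. Named genes are the 10 members, in each list those past the threshold or else up to 3 of smallest p, and the 10 genes most like Trem2 and most like the members' mean z-score, of which 1 is not reported here. Alternatives were other pseudocounts, filters, upper-quartile scaling, sample weights, voom and leaving out each mouse. Added after seeing the data were voom on a broader set of genes, fits and list counts without mice 4_5, 5_2 or 5_5, the muscle correlations, those with marker lists, and correlations without mice 4_5, 5_2 or 5_5. Promoters are from RefSeq (GRCm38.p6). Samples of either drug alone were not analysed here.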

Additional observations from a re-analysis of the deposited data

Results flagged for a closer look

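Of 40 groups of 6 libraries, 10 held a library whose gap to the next was large for the range of its group by Dixon's criterion. For normally distributed values, chance meets this criterion in about 1 in 20 groups. FPKM were used here without logarithms, and the same libraries serve all 10 genes, so 10 of 40 cannot be read against that rate. Mouse 5_5 accounted for 4 of the 10. In its liver Spp1 was at 730.4 FPKM, where the next treated liver had 143, and Trem2 at 0.692 FPKM, where the next had 0.237. In its muscle Cd63 was at 67.3 FPKM against 37.5, and Fabp5 at 21.3 against 9.61. The same muscle had the highest sum of adipocyte markers, 1979 FPKM, and the same liver the highest sum of stellate markers, 160.5 FPKM. Their part in these values was not tested.

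In vehicle liver Trem2 reached 0.539 FPKM in mouse 2_5, with 0.257 next. Fabp5 reached 17.0 FPKM in the liver of treated mouse 5_1, with 11.7 next, and Trem2 0.127 FPKM in the muscle of the same mouse, with 0.0310 next. In the muscle of vehicle mouse 2_1 Lgals3 was at 49.3 FPKM against 35.7, and Mmp12 at 3.59 against 1.28. Mmp12 in the muscle of treated mouse 4_5 was at 2.14 FPKM, with 0.750 next. Its pan-macrophage sum there, 725.5 FPKM, was the highest of the muscles, and its part was not tested.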

How the results depend on the processing

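No member passed the adjusted threshold in liver, muscle or their difference under any alternative run. In liver, 182 of 189 alternative fold changes kept their sign, in muscle 110 of 126 and in the difference 79 of 90, with adjusted p from 0.175 to 0.998, from 0.560 to 1 and from 0.722 to 1.0. Leaving out a mouse gave log2 fold changes in liver of −0.0999 to 0.083 for Fabp5 and −0.0349 to 0.18 for Ccr2, and in muscle of −0.21 to 0.070 for Fabp5, −0.064 to 0.098 for Cd9 and −0.11 to 0.18 for Cd63. For the difference it gave −0.11 to 0.16 for Gpnmb, −0.15 to 0.22 for Fabp5, −0.66 to 0.0087 for Spp1 and −0.27 to 0.045 for Lgals3. Without mice 4_5 and 5_5 together, added after seeing the data, Ccr2 in liver was at −0.063, and Cd63 and Cd9 in muscle at −0.097 and −0.12. With sample weights Cd63 and Cd9 in muscle were at −0.061 and −0.048, and with upper-quartile scaling Fabp5 was at 0.0043. The cause was not tested.

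The number of all genes called in liver was 28, and 0 with no filter, 0 without mice 4_5 and 5_5, and 0 to 83 without a mouse, 83 being without 5_2. In muscle it was 0, and 1 with upper-quartile scaling, with sample weights or without mouse 6_1. The median pairwise r ran from 0.262 (without mouse 5_2) to 0.563 (without 5_5) in liver, with 0.334 without 5_4, and from 0.0842 (without 5_5) to 0.459 (without 6_1) in muscle. At 24 h the log2 ratio of Trem2 in muscle, on 6 and 0 reads, was −0.82 and −0.21 with pseudocounts of 0.1 and 0.5. Trem2 had 5 to 64 reads a liver, and whether depth or the spread between mice limits its comparison was not tested.

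With the mouse number as a replicate block, the difference of tissue effects had 3 genes called in place of 1, and 0 members. The labels do not say that a number marks 1 mouse in both tissues. Liver and muscle deviations of the same number correlated at −0.078 to 0.447, over 0.1 for 7 of 12 numbers, and 7 of 12 correlated best with their own number.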
